A study of Rattus norvegicus with 49 samples.

Results

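The genes in question are 6 thyroid cancer drivers, Ret, Braf, Hras, Nras, Met and Pparg, measured by microarray in rat thyroid months after a single dose of radioiodine. They were taken by symbol: a probe counted as a member when its RefSeq accession mapped to 1 of the 6 names. Of the 6 genes, 5 were found, with 8 probes in all (3 for Ret, 2 for Met and 1 each for Hras, Nras and Pparg), out of 30367 probes on the array, of which 17998 carried a symbol, for 15154 symbols. No probe matched Braf, so it has no value here. All 8 probes passed the filter of being well above background on at least 3 arrays, along with 25299 probes in total. For Ret and Met, the level of the gene is that of the probe with the highest mean signal.

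Ret and Met are receptor tyrosine kinases at the cell surface, for ligands of the GDNF family and for hepatocyte growth factor. Such receptors act through the small GTPases Hras and Nras, which pass the signal to the kinase Braf and on to MEK and ERK, and in human thyroid tumours this chain is switched on by point mutations of RAS, BRAF or RET or by fusions that place the RET kinase under a foreign promoter. Pparg is a nuclear receptor that drives fat cell formation and is fused to PAX8 in some follicular thyroid tumours. In the normal gland, Ret is a gene of the calcitonin-producing C cells and Pparg of the fat cells around the lobes. The arrays measured the amount of RNA and give no information on mutations or fusions.

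Each of the 49 arrays held RNA from the thyroid of 1 male Sprague Dawley rat, with no pooling. There were 35 arrays of rats injected with 131I in 9 groups, and 14 of untreated rats in 4 groups. Young rats, injected at 5 weeks of age, received 0.5, 5, 50 or 500 kBq and were killed at 10 months of age, 9 months after injection, and 2 further young groups given 50 kBq were killed at 4 and 7 months of age, 3 and 6 months after injection. Adult rats, injected with 50 kBq at 17 weeks of age, were killed at 7, 10 and 13 months of age, 3, 6 and 9 months after injection. Untreated controls were killed at 4, 7, 10 and 13 months. The 5 kBq group and the controls of 7 and 13 months had 3 arrays, and the other 10 groups had 4. The controls received no injection, and nothing in the labels ties rats of different groups to a shared litter or cage. Levels are given as the log2 of the processed signal minus the 75th percentile of the same array, so a level of -1 lies 1 log2 unit below that percentile. They rank a probe across arrays, not one gene above another.

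Before any result, 3 arrays stood apart. The array of 50 kBq young 4 mo replicate 2 was dim, with a 75th percentile of 61.0 against 783 to 4172 on the other 48, and 42.9% of its spots were well above background, against 69.0 to 82.4%. Control 7 mo replicate 2 and 50 kBq young 4 mo replicate 3 nearly lacked thyroid transcripts. On those arrays thyroglobulin (Tg) had a level of -0.69 and 0.14, against 6.41 to 7.91 on 46 others, and the follicular thyrocyte score, the mean of 10 listed genes each centred over the arrays, was -6.37 and -5.10, against -1.01 to 1.18. Their Acta1, the actin of skeletal muscle, was at 7.88 and 7.67, above the 7.35 that was highest among the 46. Some results that rest on these arrays, among them the exposure differences of Met, are given with and without them. The others include them unless stated. By correlation with the median array, those 2 thyroid-poor arrays had r of 0.929 and 0.928. The array of 50 kBq adult 13 mo replicate 3 (0.909) and the 13 month controls (0.930, 0.930 and 0.944) were also far off. These 13 month arrays were not left out with the 3, and all results at 13 months rest on them. Control 13 mo replicates 1 and 2 were the closest pair, with an SD of the log2 differences of 0.177 over 11055 probes, against a median of 0.617 over 1176 pairs, followed by 50 kBq adult 10 mo replicates 1 and 2 with 0.220. The data do not settle whether either pair is 1 sample hybridised again.

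The start regions of Ret, Hras and Pparg, the genes on whose values most of the results turn, are shown first. Each is the 250 bases upstream of an annotated start in RefSeq, build GRCr8, read 5′ to 3′ on the gene's own strand. Capitals mark 2 kinds of letter match, a GC box (GGGCGG or CCGCCC) and an E box (CANNTG).
Ret, chr4:153040557-153040806, minus strand: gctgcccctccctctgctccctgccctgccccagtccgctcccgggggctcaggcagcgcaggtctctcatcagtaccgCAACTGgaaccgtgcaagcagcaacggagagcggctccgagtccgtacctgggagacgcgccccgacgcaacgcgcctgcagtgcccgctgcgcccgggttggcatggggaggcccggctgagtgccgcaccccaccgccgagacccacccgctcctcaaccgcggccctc
Hras, chr1:205729255-205729504, minus strand: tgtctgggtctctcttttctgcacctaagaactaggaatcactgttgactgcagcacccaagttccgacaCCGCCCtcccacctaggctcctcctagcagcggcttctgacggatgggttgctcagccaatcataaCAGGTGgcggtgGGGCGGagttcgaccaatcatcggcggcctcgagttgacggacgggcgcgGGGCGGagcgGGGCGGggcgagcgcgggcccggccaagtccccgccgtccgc
Pparg, chr4:150096808-150097057, plus strand: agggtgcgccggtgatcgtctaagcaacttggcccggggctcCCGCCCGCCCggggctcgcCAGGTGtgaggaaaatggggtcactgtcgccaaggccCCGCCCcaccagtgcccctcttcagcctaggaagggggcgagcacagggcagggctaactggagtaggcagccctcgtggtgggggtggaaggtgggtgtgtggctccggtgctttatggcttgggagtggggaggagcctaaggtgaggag
Pparg, chr4:150154522-150154771, plus strand: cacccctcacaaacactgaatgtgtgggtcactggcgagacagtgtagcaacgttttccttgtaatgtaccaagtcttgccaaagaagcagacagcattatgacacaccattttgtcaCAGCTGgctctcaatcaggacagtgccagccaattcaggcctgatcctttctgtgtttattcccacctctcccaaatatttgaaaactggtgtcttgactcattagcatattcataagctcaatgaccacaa
The Ret region, with 72.8% G and C, held 1 E box and no GC box. That of Hras held 4 GC boxes and 1 E box. Pparg has 2 starts in this set: the upstream one held 3 GC boxes, of which 2 overlap, and 1 E box, and the downstream one, with 44.8% G and C, only 1 E box. Among 33469 rat promoter windows of this length, 30.5% held a GC box, 65.5% an E box and 12.9% a TATA box (TATAAA or TTTATA), both strands searched, and the median share of G and C was 51.2%. None of the windows of the 6 genes held the TATA letters. These are letter matches, not binding sites.

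**Figure D1:**
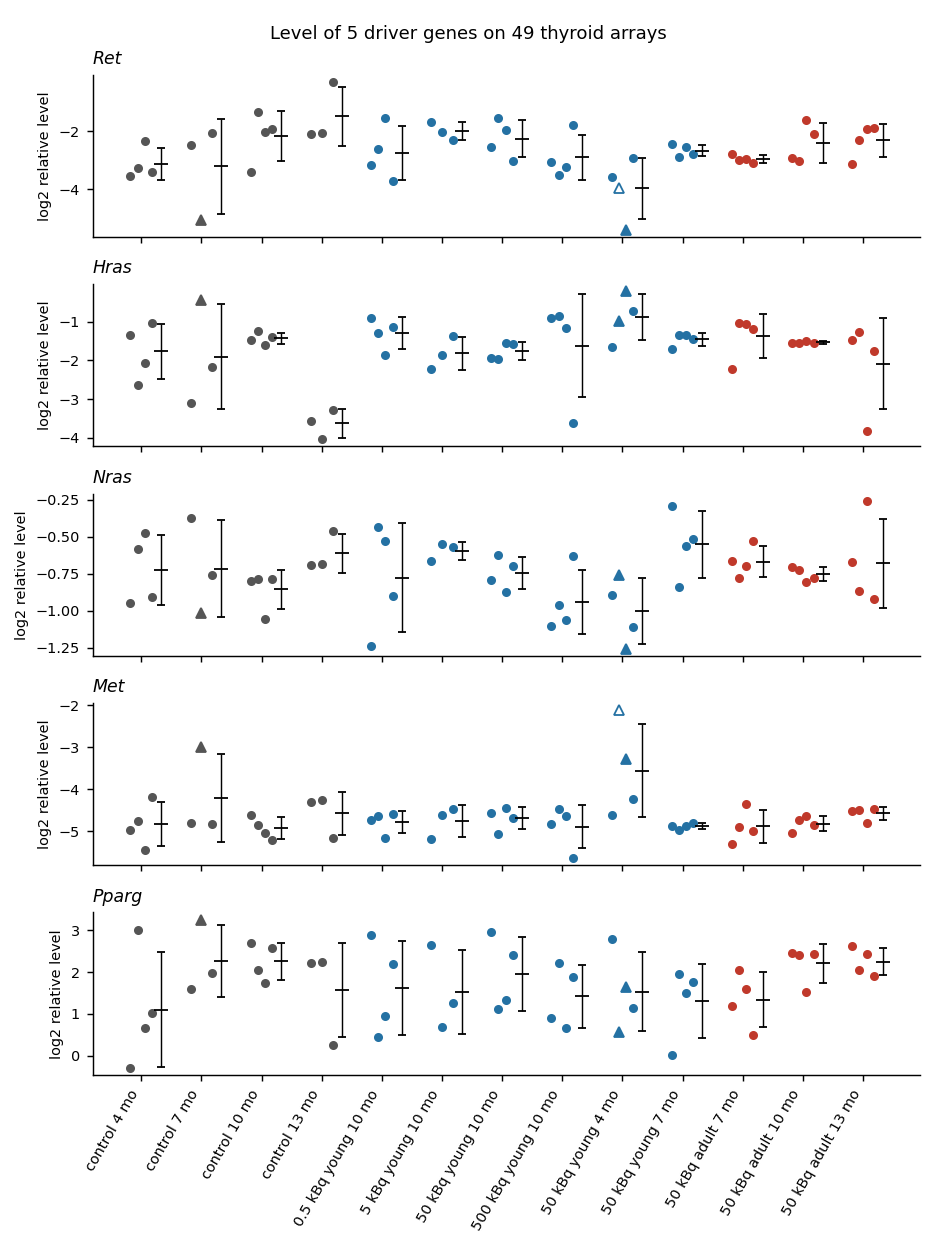
Log2 relative level (y axis) of the 5 measured genes on all 49 arrays, by group (x axis). Grey points are untreated controls, blue ones rats injected young and red ones rats injected as adults; triangles are the 3 arrays that stood apart, open symbols spots not well above background, and the bar is the mean ± SD. Hras sat between -4.03 and -3.29 in the 13 month controls, and Nras stayed within -1.25 and -0.26 on every array.

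The levels of the 5 genes differed in how much they varied between rats of the same group. The pooled SD within groups was 0.215 for Nras, 0.517 for Met, 0.710 for Hras, 0.785 for Ret and 0.873 for Pparg, and the median over all tested probes was 0.533. Nras was thus steadier than most transcripts, at percentile 6.47 of the probes, and Pparg more variable, at percentile 76.2. When the 13 groups were put in order of their mean, neighbouring groups overlapped in all 12 pairs for each gene. Such ordering sets the closest means side by side, so overlap is likely for any probe. The counts of overlaps and gaps were not taken over all probes and only describe the values. The gap between neighbours was larger than the SD within groups in 1 pair for Hras, between 50 kBq adult 13 mo (-2.08 ± 1.17, SD, n = 4) and control 13 mo (-3.63 ± 0.38, n = 3). For Met it was larger in 1 pair, between 50 kBq young 4 mo (-3.56 ± 1.11, n = 4) and control 7 mo (-4.21 ± 1.06, n = 3), and both groups contain arrays that stood apart. For Ret, Nras and Pparg no neighbours differed by more than this spread.

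The main question of the design is whether 131I exposure changed the genes against untreated rats of the same age. None of the 8 probes was called in any of the 9 comparisons. A call took the cut-offs of the study, a change of over 1.5-fold with an adjusted p under 0.01 (limma, Benjamini-Hochberg over all probes tested). Over all probes, 0.0663% of these tests were called. By comparison the share was 0.557% in 50 kBq adult 13 mo, 0.0158% in 50 kBq young 4 mo, 0.0119% in each of the 5 and 50 kBq young groups of 10 months, and 0 in the other 5. The log2 fold changes of the members ran from -1.71 to 1.61, and their smallest adjusted p was 0.0240. Without adjustment, 5 of the 72 tests had a p below 0.05, beside 8.63% over all probes. The arrays did not overlap in 4 tests, beside 8.27% over all probes. Here and below, p-values measure the spread between these arrays, and in whole tissue fewer cells of a type and less RNA per cell cannot be told apart.

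**Figure D2:**
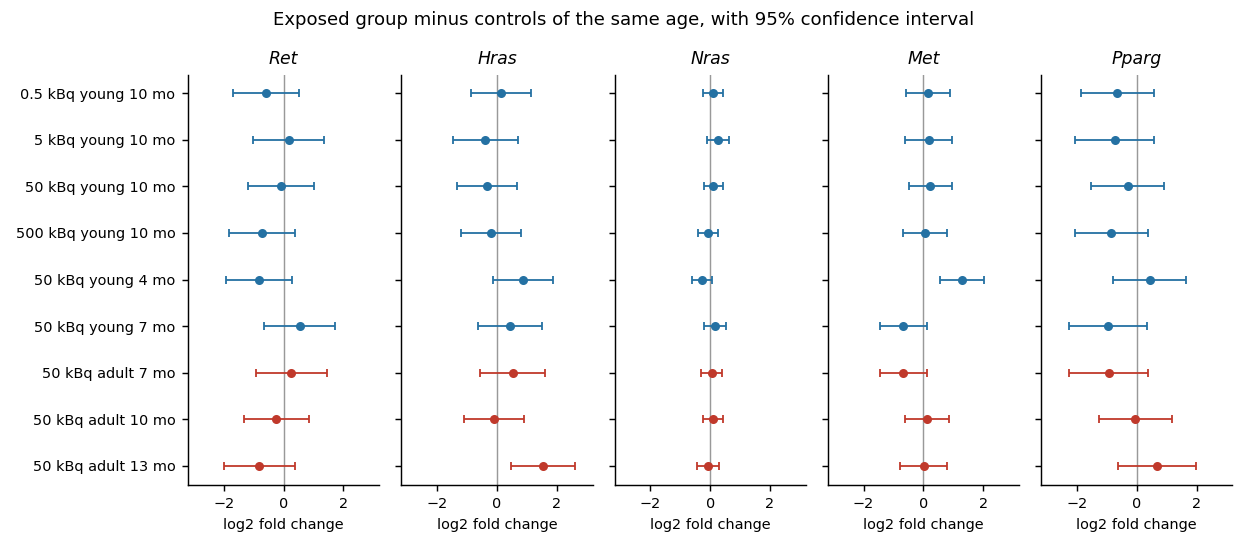
Log2 fold change (x axis) of each exposed group against the controls of its age (y axis), with the 95% confidence interval from the limma fit, for the leading probe of each gene; blue groups were injected young and red ones as adults. The intervals that leave out 0 are those of Met in 50 kBq young 4 mo (0.55 to 2.01) and Hras in 50 kBq adult 13 mo (0.47 to 2.62), neither of which passed the adjusted threshold.

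Ret, the receptor for GDNF ligands, had log2 fold changes of -1.71 to 1.07 over its 3 probes and 9 comparisons, and 12 of these 27 values were above 0. Its lowest values came from adults killed 9 months after injection. On the probe A_64_P154024 the 4 exposed arrays read -4.16, -3.33, -2.63 and -2.71, and the 3 controls of that age -1.81, -1.76 and -1.56. All 4 exposed arrays were below all controls, with a difference of -1.50 (SE 0.564, adjusted p = 0.108 by limma). Probe A_44_P480153 gave -1.71 (adjusted p = 0.141), again without overlap, and the leading probe A_64_P154019 gave -0.82 with overlap (adjusted p = 0.451). The two-sided exact permutation p was 0.0286 for each of the first 2 probes, the smallest that 3 against 4 arrays allow, and 26.1% of all probes did not overlap here. Exact p-values here and below are unadjusted. Without the 3 arrays that stood apart, none of which is in these groups, the pooled spread narrowed and A_44_P480153 passed the threshold (adjusted p = 0.0094), beside 8.97% of all probes. The C cell score was 0.18 to 2.20 in the exposed arrays and 1.23 to 3.73 in the controls, and with it as a covariate the A_64_P154024 difference was -1.12 (adjusted p = 0.0947).

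Met, the receptor for hepatocyte growth factor, was higher in the youngest exposed rats on both probes, but not past the threshold. On its leading probe the 4 arrays of 50 kBq young 4 mo read -4.61, -2.12, -3.28 and -4.23, and the controls of 4 months -4.97, -4.76, -5.45 and -4.18. The highest 2 were the dim array, where the spot was not well above background, and the array with almost no thyroid transcripts, while the remaining exposed arrays lay inside the range of the controls. The difference was 1.28 (SE 0.362, adjusted p = 0.0240 by limma; two-sided exact permutation p = 0.0857), and 16.9% of all probes had an adjusted p below 0.05 in this comparison. The second Met probe gave 1.61 (adjusted p = 0.0318). Without the 3 arrays the differences were 0.42 (adjusted p = 0.569) and 0.21 (adjusted p = 0.874). At 7 months, where the controls include the other array lacking thyroid transcripts, the leading Met probe stood at -0.68 in both exposed groups, and at -0.07 without the 3 arrays. On the second probe, A_44_P318553, the arrays of 50 kBq young 7 mo lay below all controls without overlap, by -1.06 (adjusted p = 0.781 by limma; two-sided exact permutation p = 0.0286), and 7.82% of all probes did not overlap in this comparison. Its spot was well above background on 3 of those 4 arrays and on 1 of the 3 controls. In 50 kBq adult 7 mo that probe was at -0.74, and without the 3 arrays the values were -0.61 and -0.29.

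Hras was higher in adults 9 months after injection than in controls of 13 months, though not past the threshold. The exposed arrays read -1.47, -1.28, -3.82 and -1.76, and the controls -3.56, -4.03 and -3.29. In the exposed group 3 arrays lay above every control and the remaining one inside their range, for a difference of 1.54 (SE 0.532, adjusted p = 0.0783 by limma; two-sided exact permutation p = 0.114). Without that remaining array, replicate 3, it was 2.12 and passed (adjusted p = 0.0065). This was the only 1 of the 7 fits leaving out 1 array of these groups that called Hras. Values ran from 1.27 to 2.12, with adjusted p up to 0.281. The share of all probes called without replicate 3, an array far from the median array (r of 0.909), is not given here. Leaving out the 3 arrays that stood apart raised the share called in this comparison from 0.557% to 8.97%. On the scan date that both groups share, with 2 arrays each, the difference was 0.78. Skeletal muscle markers moved along with Hras on the arrays of both groups. The muscle score, the mean of 8 of 10 listed genes each centred over the arrays, was -8.79 on replicate 3 and 0.46 to 0.82 on the other 3 exposed arrays, and -4.10 to -2.38 in the controls. With that score as a covariate, the Hras difference was 0.92 (adjusted p = 0.151). In the remaining 8 comparisons Hras differed by -0.38 to 0.88, with no call. The 2 values at 7 months, 0.44 and 0.53, were 1.18 and 1.26 without the 3 arrays that stood apart, with adjusted p of 0.459 and 0.566. All arrays of 50 kBq young 7 mo and none of the 7 month controls were scanned on the first of the 3 dates, so group and scan date cannot be told apart there by a within-date value.

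Nras, the steadier of the Ras GTPases, differed from controls by -0.28 to 0.26 in all 9 comparisons. The 5 kBq arrays read -0.67, -0.55 and -0.57, and the controls of 10 months -0.80, -0.78, -1.06 and -0.79. The groups did not overlap, but the difference was 0.26 (SE 0.177, adjusted p = 1.00 by limma, two-sided exact permutation p = 0.0286), and 15.4% of all probes did not overlap in this comparison. The 95% confidence interval of that difference was -0.10 to 0.62.

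Pparg, the regulator of fat cells, had differences of -0.96 to 0.68 and a smallest adjusted p of 0.600, so nothing passed the test. The lowest was in 50 kBq young 7 mo, against controls that include an array that stood apart. It ran from -1.30 to -0.47 with single arrays of these groups left out. Its values spread widely inside the control groups themselves. The controls of 4 months read -0.28, 3.00, 0.67 and 1.03, more than 3 log2 units between the lowest and the highest rat. Those of 10 months read 2.70, 2.04, 1.75 and 2.57.

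Among young rats killed 9 months after injection, the slope of level on log10 activity, from 0.5 to 500 kBq and without controls, was between -0.10 and 0.03 over the 8 probes. No slope had an unadjusted p below 0.05, against 2.60% of all 23138 probes fitted. Rats injected young and as adults with 50 kBq and killed at the same age differed by -0.32 to 0.52, again with no call, beside 0 of all probes at 7 months and 0.0119% at 10 months. In that comparison age at injection and time since injection differ together. In the 4 tests of whether 2 exposure effects differ, values ran from -1.87 to 2.36 with no call, beside 0 of all probes in each. The largest was Met, whose effect 3 months after injection was 1.96 higher in young than in adult rats (adjusted p = 0.0582 by limma) on the leading probe and 2.36 (adjusted p = 0.0668) on the other. Both sides of that difference contain arrays that stood apart, and without them it was 0.49 and 0.50.

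Age itself was compared in the untreated rats, each of 7, 10 and 13 months against 4 months. In the oldest rats 1 of 8 member probes was called, Ret A_64_P154024, beside 5.15% of all probes, so the share of members called is based on 1 probe. No member was called at 7 or 10 months, beside 0.00395% and 0.0119% of all probes. The 13 month controls are the same arrays as in the exposure comparison above, so a value in both is not independent.

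**Figure D3:**
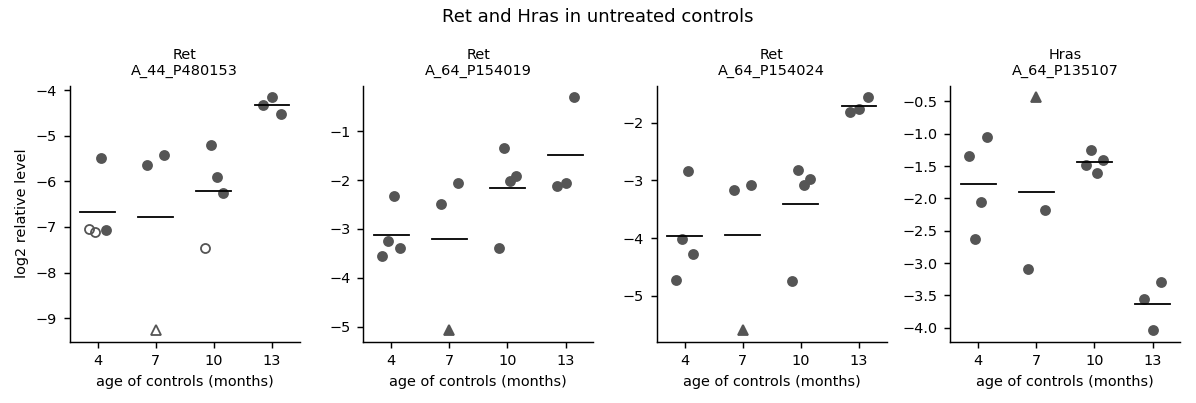
Log2 relative level (y axis) of the 3 Ret probes and Hras in untreated rats of 4, 7, 10 and 13 months (x axis, 3 or 4 rats each). Lines are group means, triangles the array that stood apart and open symbols spots not well above background; at 13 months every Ret probe lies above and Hras below all arrays of 4 months.

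Ret was higher at 13 than at 4 months on that probe. Its means were -3.97, -3.95, -3.41 and -1.71 in controls of 4, 7, 10 and 13 months, and -3.21 in 50 kBq adult 13 mo. The difference thus rests on the 13 month controls, and age cannot be told apart from other traits of that group. The 4 month controls read -4.73, -4.02, -2.83 and -4.28, and the 13 month controls -1.81, -1.76 and -1.56. All 13 month arrays lay above all 4 month arrays, by 2.26 (SE 0.564), or 4.78-fold, with an adjusted p of 0.0072 by limma; the two-sided exact permutation p was 0.0571. The other Ret probes pointed the same way without passing: 2.34 on A_44_P480153 (adjusted p = 0.0196), where only 2 of the 4 young controls were well above background, and 1.64 on A_64_P154019 (adjusted p = 0.0459). The groups did not overlap for any of the 3, as for 34.3% of all probes. Between arrays scanned on the same date the difference was 2.69 and 1.80 on the called probe. The call was lost in 6 of the 7 fits that left out 1 array of these groups and held without control 4 mo replicate 3, with values of 2.00 to 2.63 and adjusted p up to 0.0394, and also when the close pair of 13 month controls counted as 1 sample (2.29, adjusted p = 0.0393).

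Markers of C cells moved in the same direction. The C cell score, the mean of the listed genes each centred over the arrays, had 10 of 10 genes measured and 4 of them well above background on every array. It was -3.50 to 0.07 in the 4 month controls and 1.23 to 3.73 in the 13 month controls. With that score as a covariate, the age difference of Ret A_64_P154024 was 1.05 (adjusted p = 0.172). In that fit 0.0711% of the age tests of all probes were called, against 1.72% without the covariate. The follicular thyrocyte score was -0.17 ± 0.82 (SD, n = 4) at 4 months and 1.08 ± 0.14 (n = 3) at 13 months.

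Hras went the other way, though not past the threshold. Against 4 month values of -1.34, -2.63, -2.06 and -1.05, the 13 month controls read -3.56, -4.03 and -3.29. The difference was -1.86 (SE 0.532, adjusted p = 0.0155 by limma), without overlap, as for 34.3% of all probes. Within the 2 scan dates the Hras difference was -1.44 and -2.48. Without the 3 arrays that stood apart it passed (adjusted p = 0.0035), as did all 3 Ret probes, beside 22.0% of all probes. The muscle score was -0.74 to 1.01 in the young controls and -4.10 to -2.38 in the old ones, and as a covariate it left an Hras difference of -0.57 (adjusted p = 0.459). For Nras, Met and Pparg, the difference between 13 and 4 months was 0.11, 0.26 and 0.47, with adjusted p of 0.681, 0.670 and 0.642.

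**Figure D4:**
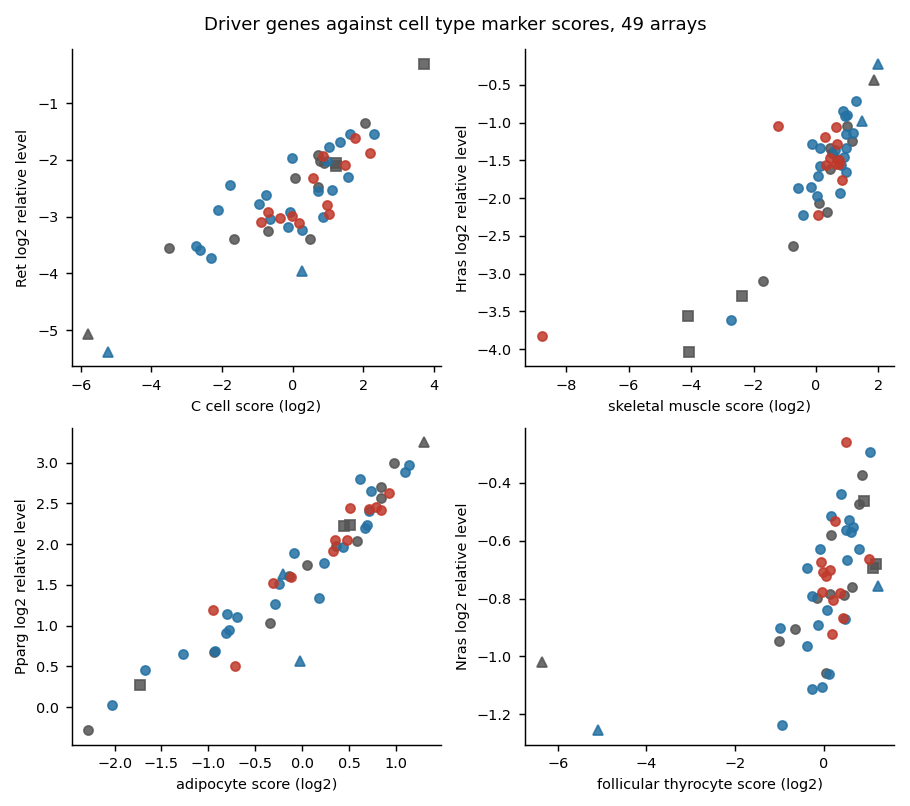
Level of a driver gene (y axis, log2) against the score of a cell type marker list (x axis, log2, mean of centred genes), 1 point per array, 49 arrays. Grey points are controls, blue rats injected young, red rats injected as adults, squares the 13 month controls and triangles the 3 arrays that stood apart; Pparg follows the adipocyte score over its whole range (r = 0.95).

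Across the 49 arrays, the list with the r farthest from 0 was that of adipocytes for Pparg, of C cells for Ret and of skeletal muscle for Hras. Each of the 5 genes was set against 11 marker lists, 55 relations in all, of which 17 had an adjusted permutation p below 0.05 by Pearson's r and 13 by Spearman's rho (two-sided, 100000 permutations, smallest possible p 1e-05, Benjamini-Hochberg over the 55). Pparg followed the adipocyte list with r = 0.95 (adjusted p = 0.00014) and rho = 0.96 (adjusted p = 0.00011). Without the 2 arrays farthest from the median score r was 0.94, it was 0.94 after centring each group, and 0.98, 0.85 and 0.94 within the scan dates of 24, 14 and 11 arrays. Ret followed the C cell list with r = 0.85 (adjusted p = 0.00014) and rho = 0.80 (adjusted p = 0.00011), and with r of 0.77 without the farthest 2, 0.81 within groups, and 0.83, 0.74 and 0.96 by scan date. With the follicular thyrocyte list, Ret had an r of 0.69 (adjusted p = 0.00014) and a rho of 0.57 (adjusted p = 0.00027), and its r was 0.48 without the farthest 2.

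Hras followed skeletal muscle, with r = 0.84 (adjusted p = 0.00014), rho = 0.76 (adjusted p = 0.00011), and r of 0.88 without the farthest 2, 0.78 within groups and 0.87, 0.87 and 0.85 by scan date. Its values on single arrays show the range: Hras was -3.62 on 500 kBq replicate 4, where the muscle score was -2.73, and -0.90, -0.85 and -1.15 on the other 3 arrays of that group, with scores of 0.86 to 0.99. Hras fell as other lists rose, with r = -0.52 (adjusted p = 0.0056) and rho = -0.58 (adjusted p = 0.00031) for the follicular thyrocyte list, and r = -0.51 (adjusted p = 0.0023) and rho = -0.55 (adjusted p = 0.00055) for the C cell list. Without the farthest 2 arrays these r were -0.56 and -0.41. Nras varied with the follicular thyrocyte list, with r = 0.54 (adjusted p = 0.00022) and rho = 0.67 (adjusted p = 0.00011), and r of 0.60 without the farthest 2. With muscle its r was -0.55 (adjusted p = 0.00037) and its rho -0.75 (adjusted p = 0.00011). Met had r = -0.48 (adjusted p = 0.0271) and rho = -0.27 (adjusted p = 0.135) with the thyrocyte list. That r became 0.04 without the 2 arrays lacking thyroid transcripts and -0.26 without all 3 that stood apart, so its size depends on these arrays. The r of Met of 0.49 (adjusted p = 0.0055) and rho of 0.30 (adjusted p = 0.093) with endothelium came with an r of 0.26 without the farthest 2 arrays. Of the other lists, the r farthest from 0 was -0.53 for parathyroid (with Hras), 0.39 for lymphocyte (Met, -0.21 without the farthest 2 arrays), 0.37 for Schwann cell (Met), -0.33 for fibroblast (Ret), 0.31 for macrophage (Hras) and -0.19 for squamous and airway epithelium (Pparg).

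**Figure D5:**
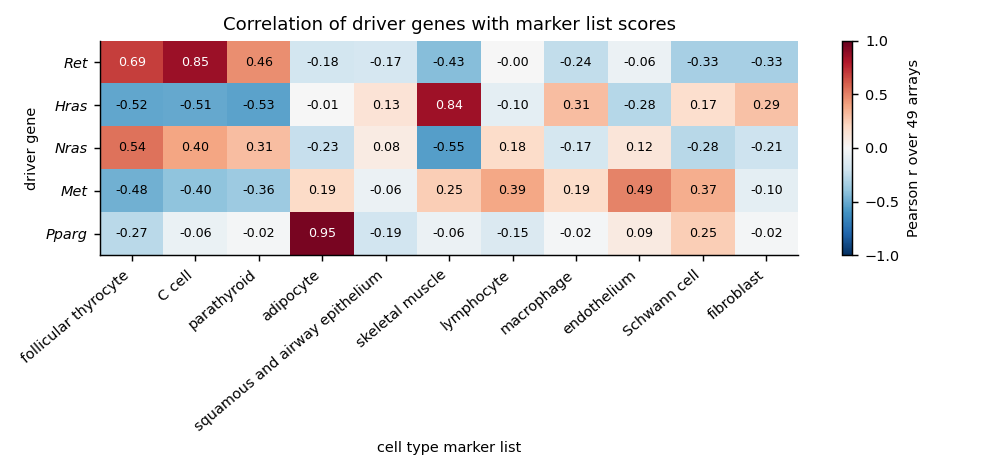
Pearson's r over 49 arrays between the level of each driver gene (rows) and each marker list score (columns), colour scale from -1 to 1. The highest values are Pparg with adipocyte (0.95), Ret with C cell (0.85) and Hras with skeletal muscle (0.84).

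The transcripts most like each gene, by r over the 49 arrays, are given as a description. For Ret they were Bsn (0.93), a scaffold of the presynaptic zone, Cadps (0.90), which primes dense core vesicles, Cyp2r1, Usp51 and Kcnk16. For Hras they were Plpp7 and Reep1 (both 0.97), Gpt2, Tpi1l1 and Homer1. For Pparg the first 5 were Prkar2b (0.97), Dgat1 (0.97), an enzyme of triglyceride synthesis, Adipoq (0.96), the adipocyte hormone, Slc36a2 and Mst1. For Nras the values were lower, from Tbc1d10a (0.83) through Prkci, Cap1 and Rnf145 to Epha2 (0.79). For Met, Rpp14 and Pcnx1 (both 0.91), Rexo4, Mical3 and Ppp2r3c led, but with the 3 arrays left out these 5 values were 0.57 to 0.77. Adipoq also belongs to the adipocyte list.

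The wider pathway was read from 8 lists of ligands, regulators and other thyroid cancer genes, 116 genes of which 101 were tested. Exposure called 1 of them. Akt1, a kinase downstream of PI3K, was 0.97 higher in adults 9 months after injection than in controls (SE 0.210, adjusted p = 0.0092 by limma), beside 0.557% of all probes called there. The means were -0.22 ± 0.18 (SD, n = 4) and -1.18 ± 0.20 (n = 3), without overlap, as for 26.1% of all probes. The controls are the same old rats in which Akt1 was 0.88 lower than at 4 months (adjusted p = 0.0057 by limma). The exposure call was lost in 5 of the 7 fits that left out 1 array of these groups (values of 0.88 to 0.97), and held without 50 kBq adult 13 mo replicate 3 or control 13 mo replicate 3. In the remaining lists no gene passed. The median changes over the 9 comparisons stayed between -0.71 and 0.22 for Ret ligands and co-receptors, and -0.71 and 0.87 for the Met ligand and its activators. That second list also holds Spint1, Spint2, Mst1 and Mst1r, so its median is not one of activators alone. The medians were -0.43 to 0.20 for adaptors and Ras regulators, and -0.17 to 0.18 for the Ras family and Raf-MEK-ERK kinases.

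The median changes of ERK feedback and target genes were -0.25 to 0.30, of Pparg partners and targets -0.52 to 0.79, of fusion partners -0.19 to 0.13 and of other thyroid cancer genes -0.15 to 0.13. In the lists without a call, the genes with the smallest p were St14 and Spint1 (1.72 and 1.66 in 50 kBq adult 7 mo, adjusted p = 0.997 for both), Dusp5, a phosphatase induced by ERK (-2.05 in 50 kBq young 4 mo, adjusted p = 0.0219), Spry4 (-1.23 at 5 kBq, adjusted p = 0.187), Agk (0.64 in 50 kBq adult 13 mo, adjusted p = 0.0563) and Hook3 (0.51 in 50 kBq young 4 mo, adjusted p = 0.0385). The St14, Spint1, Dusp5 and Hook3 values all come from comparisons with arrays that stood apart, and are given here only with those arrays.

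Between 4 and 13 months of age, 8 of the 101 list genes were called in untreated rats, 5 of them higher and 3 lower, beside 5.15% of all probes. Those that rose included Gfra1, the GDNF co-receptor of Ret (1.97, adjusted p = 0.0099), the Ras inactivator Nf1 (1.26, adjusted p = 0.0048) and the Ras relative Mras (1.36, adjusted p = 0.0021). Those that fell were Rxrg, a partner receptor of Pparg (-2.59, adjusted p = 0.0034), Eif1ax, a translation initiation factor (0.18 ± 0.39, SD, n = 4, at 4 months and -0.82 ± 0.17, n = 3, at 13 months, adjusted p = 0.0030), and Akt1. All 8 differed without overlap between the groups, as did 34.3% of all probes, and they were picked by their p in this same comparison. The list medians in this comparison were 1.21 for Ret ligands, 0.61 for the Met ligand and its activators, 0.43 for adaptors, 0.36 for ERK targets, 0.21 for Ras and Raf kinases, 0.15 for other cancer genes, 0.08 for fusion partners and -0.03 for Pparg partners, where the median of all probes was 0.19. Each of the 8 calls was lost when control 4 mo replicate 1 or 4, or control 13 mo replicate 1 or 2, was left out.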

How the data were processed

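RNA of 1 thyroid per rat was labelled with Cy3 and hybridised to Agilent rat arrays, 49 arrays in 13 groups taken from the sample titles. The authors deposited, per array, the spot intensity written by Feature Extraction 10.7.3.1, as background-subtracted processed signals not scaled between arrays, with raw median signal and background intensities. The deposited files also hold other marks per spot, for well above background, outlier and control spots, which were used as filters. The labels name Partek and the study's methods name Nexus Expression for the authors' own analysis. A further deposited table holds the authors' comparison fold changes and was not used.

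Here control and outlier spots were left out, spots of a probe averaged, and levels taken as log2 intensity minus the 75th percentile of each array, computed from the deposited signals. Probes well above background on at least 3 arrays were tested. One limma fit (limma 3.58.1, R 4.3.3) held 13 group means with no covariate. Calls needed an adjusted p (Benjamini-Hochberg over all probes of a comparison) below 0.01 and a fold change over 1.5. Exact permutation tests and correlations ran in Python 3.11.15, the exact tests with numpy 2.4.6. Confidence intervals used the t quantile of scipy 1.17.1. The fit was tested on simulated data, with group-centred values shuffled over the arrays and 200 probes shifted in 50 kBq adult 13 mo. Against the 13 month controls it called 26, 65.5 and 83.5% of the probes shifted by 1, 2 and 3 log2 units. A gene without a call is therefore not shown to be unchanged. The number of arrays limits the precision.

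Named genes were the members, the 5 most correlated genes of each, pathway genes called in any comparison, and the 2 of smallest p where a list had no call. The 11 marker lists were follicular thyrocyte, C cell, parathyroid, adipocyte, squamous and airway epithelium, skeletal muscle, lymphocyte, macrophage, endothelium, Schwann cell and fibroblast. Some genes named by this rule are not reported here. Members and lists were chosen with earlier results of these data known. Alternatives covered the normalization, background correction, dim-probe filter, slide and scan date, replicate blocks, array weights, thresholds and single arrays left out.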

Additional observations from a re-analysis of the deposited data

Results flagged for a closer look

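Among the 80 sets of 4 arrays of a member probe and a group, 9 (11.25%) had 1 array far from the other 3. The nominal rate of the cut-off is about 1 in 20. The rate over all probes was not computed, and the sets share arrays and genes, so no excess for these genes can be read from the count. Hras was -3.62 in 500 kBq young 10 mo replicate 4, against -1.15 to -0.85 on the other 3 arrays, and the muscle score of that array was the lowest of its group. Hras was also apart at -2.22 in 50 kBq adult 7 mo replicate 1, against -1.18 to -1.05. In 50 kBq adult 10 mo replicate 3 it was -1.49, against -1.56 to -1.55, a gap that stands out only because the other 3 arrays were nearly equal.

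Pparg was 1.52 in 50 kBq adult 10 mo replicate 3, against 2.42 to 2.46. Nras was -1.06 in control 10 mo replicate 3, against -0.80 to -0.78, and Met (A_64_P132487) was -4.80 in 50 kBq adult 13 mo replicate 3, against -4.51 to -4.48. For Ret, A_64_P154024 was -4.75 in control 10 mo replicate 1, against -3.08 to -2.81, and -4.28 in 50 kBq adult 7 mo replicate 4, against -3.80 to -3.72. The probe A_44_P480153 of Ret was high, at -5.48 in control 4 mo replicate 3 against -7.12 to -7.04, of which 2 were not well above background.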

How the results depend on the processing

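The count of member probes called for exposure, 0 of 72 tests, was 1 without the 3 arrays that stood apart (beside 1.01% of the tests of all probes), 2 at an adjusted p below 0.05 (2.39%) and 5 with array weights (10.3%), and 0 to 2 with single arrays left out. The age count, 1 of 24 (1.72%), was 0 with normexp background correction (0.776%), with the probes of a gene averaged (1.88%) and with the closest array pairs counted as 1 sample (0.0066%). It was also 0 with the C cell (0.0711%) or the muscle score (0.0119%) as a covariate. It was 2 with slide (4.28%) and 3 with scan date (3.13%) as a block, 4 without the 3 arrays (7.34%) or at an adjusted p below 0.05 (5.9%), 5 with array weights (21.7%), and 0 to 3 with single arrays left out. The tests of differing exposure effects, 0 called, gave 3 with array weights (12.6%) and 0 with single arrays left out. Array weights called 36.7% of all probes between 13 and 4 month controls. The weights were very uneven: 201, 0.26 and 6.1e-34 in the 7 month controls, and 2.1e-05, 41.6 and 2.54 in those of 13 months. In that setting each of these 2 groups rested mostly on 1 array. The 4 exact tests with an unadjusted p below 0.05, a count not taken over all probes, were 2 with the closest pairs as 1 sample. The Ret tests against the 13 month controls could not pass there, since so few arrays allow no exact p below 0.05. The slope and the young against adult comparison stayed at 0 under all alternatives run, also with single arrays left out. The cause of these shifts was not tested. For the counts with single arrays left out, the share of all probes called is not given here.

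Same-numbered arrays of exposed groups and their controls correlated with r from -0.52 to 0.49. In 50 kBq young 7 mo all 3 pairs were above 0.1 (0.14, 0.32 and 0.33), and each of the other 8 comparisons had a pair at or below it; nothing in the labels ties these rats. With the replicate block the exposure count was 0 (beside 0.00659% of the tests of all probes), that comparison included, and the age count 0 (1.03%). Values that changed sign included the r of Met with the follicular thyrocyte list, 0.044 without the 2 farthest arrays, and with the lymphocyte list, -0.21 without them, and Spint1 in 50 kBq adult 7 mo, -0.92 with array weights. Values that never passed the threshold also crossed 0 with single arrays left out, among them Hras in 50 kBq adult 7 mo (-0.07 to 1.26) and at 500 kBq (-0.45 to 0.47). Leaving out the 3 arrays, the score covariates and the closest pairs were chosen after seeing the data.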
